A study of Mus musculus with 30 samples.

Results

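Neural retina of mouse retinal organoids at differentiation day 10 (D10) was compared with that at day 7 (D7) across all genes of a deposited table of estimated counts. The members are the 6 libraries that the table names for those days, 3 of D10 and 3 of D7, out of 30 in the series, taken by day from the column names. The series followed organoid formation by RNA-seq at 10 collection days, with 3 biological replicates a day, and whether replicates were separate differentiations is not stated, so p-values measure only the spread between such libraries. All samples came from 1 clone of wild-type Nrl-GFP induced pluripotent stem cells (iPSCs). The clone was made from fibroblasts of mouse embryos at embryonic day 14.5 with doxycycline-inducible Oct3/4, Sox2, Klf4 and c-Myc, and Nrl-GFP is a reporter of the rod factor Nrl. Per the labels' protocols, 3000 cells a well were plated at D0, Matrigel was added at D1, and at D7 the organoids were moved to a dish with DMEM/F12 and N2 supplement. Oxygen was held at 5% from D0 to D10 and at 20% afterwards, and taurine, 9-cis retinal and insulin-like growth factor 1 (IGF1) were supplied from D10. The organoids were made by a modified HIPRO protocol, and each D7 and D10 sample was neural retina dissected just before lysis, pooled from 30 organoids at D7 and from 20 at D10. Whether the D10 tissue was taken before or after the change of medium and oxygen on that day is not stated. Age, medium since D7 and number of pooled organoids all go with the day and cannot be told apart.

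In the embryo the optic vesicle, an outpocketing of the forebrain marked by Rax, Pax6, Six3 and Lhx2, folds into a cup whose inner layer becomes neural retina and whose outer layer becomes pigment epithelium. Progenitors of the neural retina then, in waves, leave the cell cycle under proneural factors such as Atoh7 and Neurog2, with retinal ganglion cells as the first neurons. Notch signals between neighbouring cells hold part of the progenitors back, and the retina depends strongly on glycolysis at all ages.

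Depth was 17398211 to 19364265 counts a library. Levels are given in CPM, the counts scaled to a common library size after TMM scaling, which takes most genes as unchanged. One CPM stands for 17.6 to 20.6 counts in these libraries, so that counting error was small except for genes near 0. Within a day the lowest correlation of log CPM was 0.990 at D7 and 0.989 at D10, while D10 libraries had correlations of 0.958 to 0.966 with the D7 mean. Libraries of the series fell into 2 sets by the share of Rpl3 reads assigned to an Rpl3 pseudogene: all D7 libraries and D10 replicate 2 had 19.5 to 25.19% there, and D10 replicates 1 and 3 had 84.2 and 85.5%. The sets are thus partly mixed with the day, and counts are also given from a fit with the set as a term. Of 19897 genes tested with edgeR's quasi-likelihood test, 3979 (20.0%) were higher and 3543 (17.8%) lower at D10 at a Benjamini-Hochberg adjusted p below 0.05, the threshold meant wherever a gene is said to have risen, fallen or passed. Counts in the gene lists below that come from this fit are to be read against these shares. Fits to fewer libraries called other shares of their genes, so list counts from them are not. With the 6 libraries of these days alone, 4565 genes were higher and 4357 lower of 16611 tested. With only set 1, fewer genes were called than in the main fit. With the set as a term 34.9% passed, 3621 higher and 3324 lower, of which 3387 and 3047 were called the same way in both fits. Scaling by library size alone moved the median log2 change of all genes from 0.03 to 0.16 and the split to 4198 higher and 2273 lower.

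A change of at least 2-fold was called for 3564 genes (17.9%), 2399 of them higher and 1165 lower. Predicted, pseudogene, histone, ribosomal protein and mitochondrially encoded genes were set aside, and a gene had to reach a mean of 10 CPM on its higher day, show no overlap between the days and be called with and without the set term. The 15 largest rises under these conditions were, in order, Atoh7, Pou4f2, Foxn4, Dlx1, Vmn2r2, Neurog2, Dapl1, Aldh1a1, Crb1, Dll4, Ndufa4l2, Sv2c, Ppp1r3c, Isl1 and Col9a2. They hold regulators of first-born neurons, the Notch ligand Dll4, the apical polarity gene Crb1, the retinoic acid-forming enzyme Aldh1a1, the collagen IX chain Col9a2, the synaptic vesicle protein Sv2c, and Ndufa4l2 and Ppp1r3c, known targets of hypoxia-inducible factor. Vmn2r2 belongs to a large family of vomeronasal receptors and Aldh1a1 has the near copy Aldh1a7, so reads of both may be shared with relatives. In bulk tissue, more cells of a kind and more RNA per cell cannot be told apart, here and throughout.

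**Figure D1:**
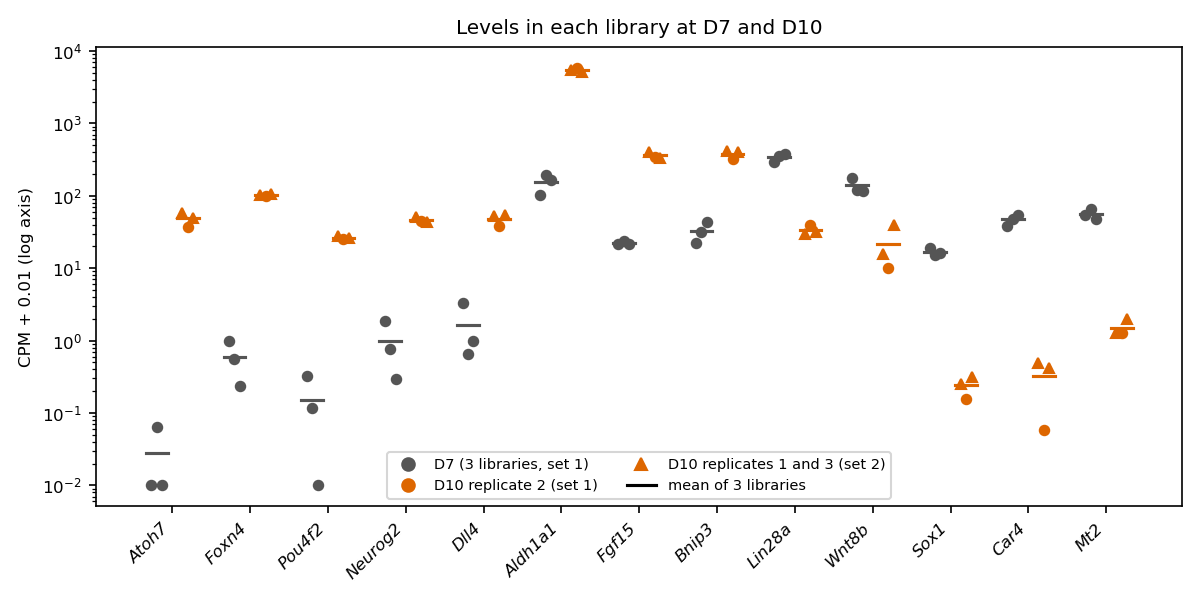
Level of 13 genes in each of the 6 libraries, in CPM with 0.01 added on a log axis; grey, D7, orange, D10, circles, libraries of set 1, triangles, set 2, short lines, means of 3 libraries. For each gene shown the D10 circle lies on the same side of the grey points as the D10 triangles, as for Fgf15 (21.3 to 23.6 CPM at D7, 328 to 407 CPM at D10). For Car4 the circle is well below the triangles (0.0485 CPM against 0.486 and 0.410 CPM). Most of these genes were named by a rule that asked for no overlap between the days, which sets that side in advance.

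Atoh7, the basic helix-loop-helix factor that makes progenitors competent to become ganglion cells, stood at 0, 0.0539 and 0 CPM in the D7 libraries and at 58.7, 37.1 and 49.9 CPM in the D10 libraries. That is 1 count in all at D7 and 2946 counts at D10. The ratio was 2690, with an exact 95% interval from 483 to 106000 that covers counting error only (adjusted p = 6.36e-13). Its promoter is shown because the gene went from 1 count to 2946. In the window from 250 bases before to 50 after the start (RefSeq, GRCm38.p6, chr10:63099535-63099834, plus strand) capitals mark an E-box of the kind bound by proneural factors.
Atoh7: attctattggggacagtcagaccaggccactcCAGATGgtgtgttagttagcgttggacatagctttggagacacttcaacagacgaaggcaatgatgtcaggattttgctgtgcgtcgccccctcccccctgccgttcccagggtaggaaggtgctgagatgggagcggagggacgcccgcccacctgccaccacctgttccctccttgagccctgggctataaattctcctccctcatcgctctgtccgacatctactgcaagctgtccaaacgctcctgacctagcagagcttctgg
The E-box letters searched were CAGATG or CAGCTG or CATATG on both strands, of which CAGCTG and CATATG read the same on either strand. They were present in 8 of 13 windows (61.5%) of 11 neurogenic genes that rose and have a promoter in the table, against 33.4% of all 32851 windows. A match is only a match of letters in the window and shows no binding. Listed neurogenic genes that did not rise were not counted apart, so the shares say nothing about the change between the days.

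Among 19 neurogenic precursor genes, all tested, 14 rose and 0 fell, with a median log2 change of 1.55 (0.03 over all tested genes), and the count was also 14 with the library set as a term. Foxn4, a forkhead factor needed for amacrine and horizontal cells, was at 0.983, 0.539 and 0.228 CPM at D7 and at 102, 101 and 105 CPM at D10. The D10 libraries were within a few percent of each other and far above every D7 library (log2 change 7.42, SE 0.39, adjusted p = 8.56e-13). Neurog2, a proneural factor that marks progenitors about to leave the cycle, was at 1.86, 0.754 and 0.285 CPM and then at 50.6, 45.4 and 43.2 CPM. Again the days did not overlap (log2 change 5.55, SE 0.59, adjusted p = 1.05e-07). Neurod1, Onecut1 and Neurod4, which act after the proneural step, rose with log2 changes of 3.83, 3.13 and 2.43. Insm1, a zinc finger factor of newborn neurons, went from 7.76, 7.70 and 6.44 CPM to 29.2, 29.1 and 29.4 CPM. Its 3 D10 libraries were almost equal and above those of D7 (log2 change 2.00, SE 0.29, adjusted p = 8.05e-06). Neurog1 and Sox4 did not pass, Sox4 with 163, 126 and 114 CPM at D7 and 155, 109.8 and 143 CPM at D10.

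Of 18 genes of the Notch pathway, the lateral inhibition system that keeps neighbours of a nascent neuron as progenitors, 8 rose and 1 fell (median log2 change 0.52). With the library set as a term 6 rose and 1 fell, and with only set 1 5 rose (median 0.32). Dll4, the ligand that nascent retinal neurons present, was at 3.31, 0.646 and 0.968 CPM at D7 and at 51.8, 37.8 and 54.1 CPM at D10. All D10 values were above all D7 values (log2 change 4.85, SE 0.40, adjusted p = 2.16e-09). Dll1, the other main ligand, was at 61.8, 37.1 and 35.1 CPM and 56.8, 40.4 and 66.7 CPM, overlapped between the days and did not pass (adjusted p = 0.536). Among receptors, Notch1 rose from 65.1, 50.3 and 42.1 CPM to 197, 134 and 253 CPM (log2 change 1.89, SE 0.31, adjusted p = 3.03e-05). Notch2 went the other way, with 221, 175 and 179.9 CPM at D7 and 109.8, 109 and 127 CPM at D10 (log2 change -0.74, SE 0.16, adjusted p = 0.000544). For neither receptor did the days overlap. The targets Hes5 and Hey1, repressors that Notch switches on, rose with log2 changes of 2.15 and 2.68, and Mfng, a glycosyltransferase that modifies the receptors, with one of 1.89. Nrarp, a feedback inhibitor, rose with a log2 change of 1.94, but its adjusted p was 0.122 with the set as a term and 0.0585 to 0.117 without any single library other than D10 replicate 2.

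Of 18 retinal ganglion cell genes 9 rose and 2 fell (median log2 change 1.08). The counts were the same with the set as a term, and with only set 1 they were 5 and 1 (median 0.58). Pou4f2, the POU factor that commits cells to the ganglion fate downstream of Atoh7, was at 0.310, 0.108 and 0 CPM at D7, 8 counts in all, and at 27.9, 25.0 and 26.1 CPM at D10. The ratio of D10 to D7 was 182 with an exact 95% interval of counting error from 92.4 to 423 (adjusted p = 3.65e-09). Isl1, a LIM homeodomain factor that acts beside Pou4f2, was at 3.10, 1.51 and 0.854 CPM and then at 49.95, 37.9 and 40.5 CPM. The days did not overlap (log2 change 4.54, SE 0.46, adjusted p = 5.94e-08). Sncg, Eya2 and Nrn1 rose with log2 changes of 2.29, 2.21 and 1.92. Irx2 and Rbpms fell, with log2 changes of -1.83 and -0.69. Irx2 was far higher in D7 replicate 1 than in the other D7 libraries and its call rests on that library, without which the adjusted p was 0.127. Rbpms, an RNA-binding protein, lost its call without any of 4 single libraries (adjusted p 0.0669 to 0.0804 without D7 replicate 2 or 3 or D10 replicate 1 or 3). Thy1, a surface protein of mature ganglion cells, stayed below 1 CPM in every library, and Pou4f1 did not pass (14.5, 7.22 and 5.18 CPM at D7, 4.67, 2.91 and 3.69 CPM at D10).

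General neuronal genes rose with them. Of 24 genes of the neuronal cytoskeleton and axon growth 17 rose and 1 fell (median log2 change 1.08), and of 20 synaptic genes 14 rose and 1 fell (median 1.41). With the set as a term the counts were 13 and 0 and 13 and 1, and with only set 1, where D10 replicate 2 stands alone for its day, 6 and 0 and 8 and 1. Within D7 these genes differed between libraries, with replicate 1 highest for every one of the rising genes named here. Dcx, which binds microtubules in migrating young neurons, was at 27.6, 13.8 and 6.78 CPM at D7 and at 66.0, 52.3 and 65.1 CPM at D10. Each D10 library was above each D7 library, D7 replicate 1 being closest (log2 change 1.93, SE 0.40, adjusted p = 0.000489). Tubb3, the neuronal tubulin, was at 166, 103 and 53.1 CPM and 306, 197 and 296 CPM, likewise without overlap (log2 change 1.31, SE 0.37, adjusted p = 0.00677), and lost its call without D7 replicate 3 (adjusted p = 0.0588). Stmn4 and Elavl4 rose with log2 changes of 3.03 and 2.42, whereas Elavl2 fell with overlap between the days (log2 change -0.66, adjusted p = 0.0471, and 0.0537 with the set as a term). Its call was lost without D7 replicate 1 (0.276), D7 replicate 3 (0.0667), D10 replicate 1 (0.125) or D10 replicate 2 (0.174). Syt1, the calcium sensor of synaptic vesicles, was at 9.42, 6.09 and 5.30 CPM and then at 66.4, 48.0 and 60.7 CPM. The days did not overlap (log2 change 3.07, SE 0.27, adjusted p = 6.94e-09). Gria2, an AMPA receptor subunit, and Snap25, a fusion protein of the presynapse, rose with log2 changes of 3.15 and 2.60.

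Genes of amacrine and horizontal cells rose in part. Of 14 amacrine and horizontal cell genes 7 rose and 2 fell (median log2 change 0.86, or 0.79 with the gene at 0 at D7 set to its bound of 3 counts over the day), and 2 rose and 2 fell with only set 1. Prox1, a homeodomain factor of horizontal cells, was at 13.3, 14.2 and 11.2 CPM at D7 and at 51.0, 46.9 and 47.3 CPM at D10. The days were far apart (log2 change 1.91, SE 0.31, adjusted p = 2.79e-05). Lhx1, which marks horizontal cells, was at 0.569, 0.323 and 0.683 CPM and 5.89, 3.10 and 14.4 CPM, so that it rose (adjusted p = 2.29e-05) with a spread of over 4-fold within D10. Ptf1a, the factor that fixes the amacrine and horizontal fates, was below 0.2 CPM in every library and did not pass. Without D10 replicate 1, 3 genes of the list rose, and without D7 replicate 3, 4.

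Of 16 photoreceptor precursor genes 6 rose and 1 fell (median log2 change 1.31, or 1.18 with the gene at 0 at its bound). Rorb, a nuclear receptor of the rod lineage that progenitors also express, was at 8.85, 9.32 and 7.06 CPM at D7 and at 161, 134 and 126 CPM at D10. Crx, the homeodomain factor of photoreceptor precursors, was at 4.92, 11.6 and 14.5 CPM and 37.6, 32.4 and 55.0 CPM. For both genes the days did not overlap (log2 changes 4.05 and 2.01, adjusted p = 5.69e-12 and 2.33e-05). Prdm1, which sets photoreceptor against bipolar fate, rose with a log2 change of 4.04 and Thrb, the thyroid hormone receptor of cones, with one of 1.35. Rxrg, a retinoid X receptor that works with it, fell from 30.9, 27.2 and 31.2 CPM to 4.04, 4.17 and 5.12 CPM (log2 change -2.74, SE 0.22, adjusted p = 1.36e-09). Nrl, whose reporter the clone carries, was below 0.5 CPM in all 6 libraries, and Nr2e3, its target, at or below 0.205 CPM.

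Of 12 eye field and optic vesicle factors 6 rose and 1 fell (median log2 change 0.81), and of 12 neural retina progenitor genes 7 rose and 1 fell (median 1.62), with the same counts under the set term. Fgf15, a fibroblast growth factor of the central retina, rose from 21.6, 23.6 and 21.3 CPM to 407, 348 and 328 CPM (log2 change 4.03, SE 0.36, adjusted p = 8.30e-09). Dkk3, a secreted protein of progenitors, and Sfrp2, a secreted Wnt binding protein, rose with log2 changes of 4.23 and 2.01. Ccnd1, the cyclin that carries retinal progenitors through G1, went from 105, 91.3 and 87.1 CPM to 368, 411 and 310.5 CPM, without overlap (log2 change 1.94, SE 0.30, adjusted p = 1.87e-05). Rax, the earliest eye field factor, was at 19.1, 33.3 and 27.0 CPM and 158, 112 and 169 CPM and rose too (log2 change 2.47, adjusted p = 0.00129), as did the frizzled receptor Fzd5 (2.10) and Six3 (1.17). Otx2, which the vesicle expresses and neural retina progenitors lose, was at 374, 393 and 465 CPM at D7 and at 217, 195 and 211 CPM at D10. All D10 values were below all D7 values (log2 change -0.98, SE 0.16, adjusted p = 3.29e-05). Fabp7, a fatty acid binding protein of neural stem cells, also fell (-1.54). Hes1 and Sox2 rose with log2 changes of 0.85 and 0.79, calls that were lost without D7 replicate 1 (adjusted p = 0.0544) and D7 replicate 3 (adjusted p = 0.0508).

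Several eye genes had no overlap between the days and still did not pass in the test, which takes its spread from all 30 libraries. Pax6, the master factor of eye formation, was at 365, 404 and 449.9 CPM at D7 and at 734, 783 and 661 CPM at D10. The days did not overlap, yet the adjusted p was 0.189 (log2 change 0.84, SE 0.49), against 0.000229 with the spread of these 6 libraries alone. Six6, Nr2e1 and Lhx2 had no overlap either, with adjusted p of 0.131, 0.13 and 0.383 against 0.000349, 6.61e-05 and 0.00317 (log2 changes 1.26, 1.30 and -0.57). Over all 52 lists, 65 genes were called higher and 81 lower only with the 6 libraries alone. That fit called 8922 of 16611 tested genes, a larger share than the 37.8% of the fit over 30 libraries, so a pass in it is common. Over all genes, 3750 that did not pass in the fit over 30 libraries had no overlap between the days. No overlap was seen for 5683 genes with higher (28.6%) and 5416 with lower (27.2%) D10 libraries. Six3, Sox2, Pax6 and Dlx1 each have an antisense or overlapping non-coding gene, and no source used here says if counting was by strand.

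**Figure D2:**
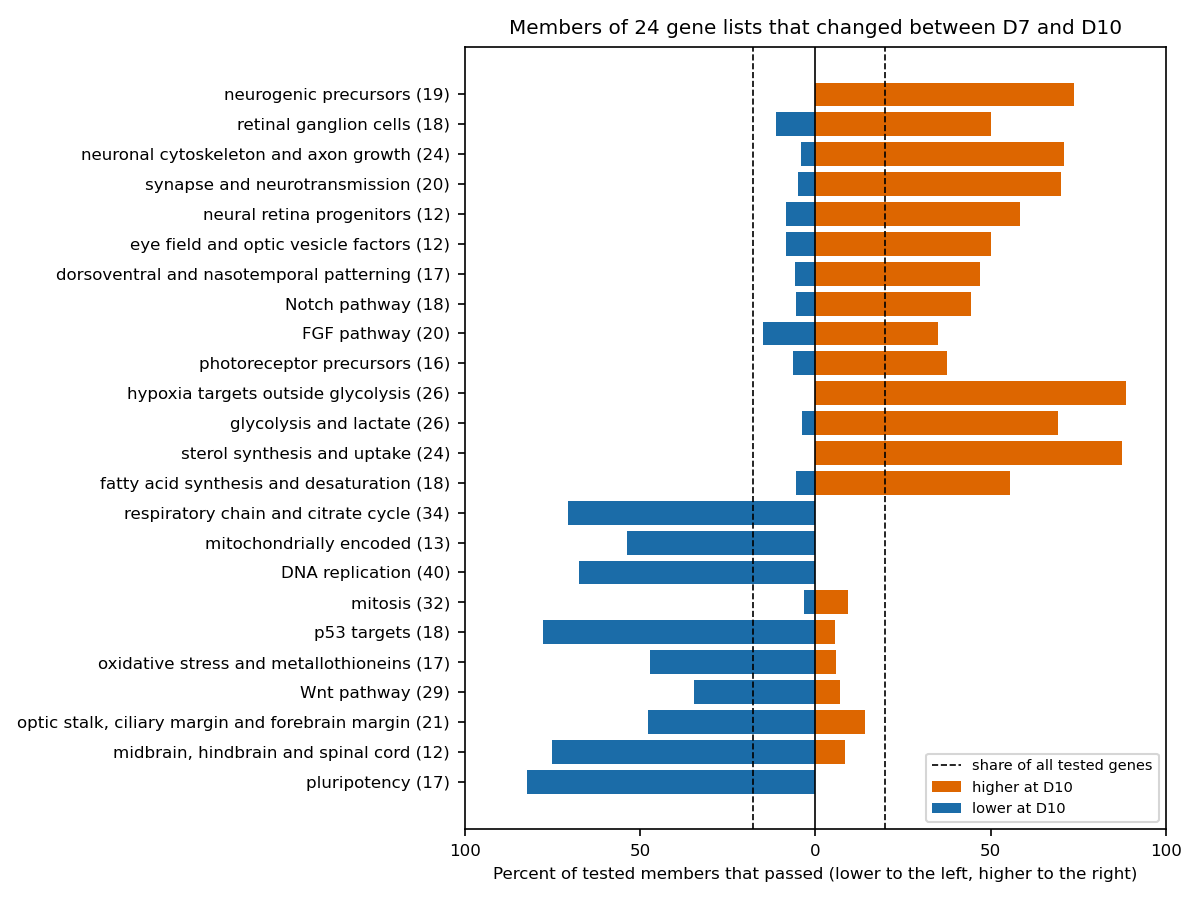
Percent of the tested members of 24 gene lists (number tested in brackets) that were higher (orange, to the right) or lower (blue, to the left) at D10; dashed lines, the shares of all 19897 tested genes, 20.0% higher and 17.8% lower. Neurogenic, hypoxia and sterol lists lie to the right alone, and pluripotency, DNA replication and respiratory lists to the left alone.

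Pigment genes were mixed. Of 22 tested genes of pigment epithelium and melanosomes (of 23 listed) 8 rose and 1 fell (median log2 change 0.39, with the set as a term 0.07), and the summed level of the list was 1816 to 2163 CPM at D7 and 2029 to 2114 CPM at D10. Gpnmb, a melanosomal glycoprotein, was at 17.5, 11.4 and 12.6 CPM at D7 and at 175, 194 and 154 CPM at D10. Tyr, the rate-limiting enzyme of melanin synthesis, was at 10.9, 2.91 and 2.68 CPM and 70.0, 73.4 and 45.6 CPM. Both rose without overlap (log2 changes 3.65 and 3.51, adjusted p = 1.56e-05 and 0.000108). Mitf, the pigment epithelium regulator, was lower in each D10 library (54.0, 62.2 and 66.3 CPM against 114, 113 and 139 CPM), with an adjusted p of 0.186 in the fit over 30 libraries and 0.00016 with these 6. Trpm1 went the same way (962, 825 and 823 CPM at D7, 552, 624 and 543 CPM at D10, adjusted p = 0.411 and 0.00101).

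Dorsoventral and nasotemporal patterning genes rose in part. Of 17 tested (18 listed) 8 rose and 1 fell (median log2 change 0.98). The counts were again 8 and 1 without D10 replicate 1 and 8 and 3 with only set 1, but the medians were then -0.17 and -0.37. Aldh1a1, which makes retinoic acid in the dorsal retina, was at 103, 193 and 165 CPM at D7 and at 5518, 5852 and 5074 CPM at D10. The lowest D10 library exceeded the highest D7 library many times over (log2 change 5.16, SE 0.39, adjusted p = 4.34e-10). Tbx5, the dorsal T-box factor, was at 16.8, 31.1 and 29.6 CPM and 108, 119 and 144 CPM, again without overlap (log2 change 2.26, SE 0.36, adjusted p = 2.71e-05). The dorsal ephrin ligand Efnb2 and the receptors Epha5 and Ephb2 rose with log2 changes of 1.37, 2.58 and 1.10. Efna5, a ligand of the nasal-to-temporal axis, fell from 131, 101 and 118 CPM to 66.3, 70.8 and 62.0 CPM (log2 change -0.81, adjusted p = 0.00444). Of the ventral genes, Aldh1a3 was at 22.0, 36.0 and 38.4 CPM and 28.4, 25.4 and 21.6 CPM and Vax2 at 2.17, 1.83 and 1.31 CPM and 8.61, 0.582 and 1.33 CPM, and neither passed (adjusted p = 0.402 and 0.392). The retinoic acid-degrading enzymes Cyp26a1 and Cyp26c1 rose at low levels (5.21, 7.52 and 2.67 CPM and 0.875, 1.26 and 0.871 CPM at D10), and both calls were lost without D10 replicate 2 (adjusted p = 0.0693 and 0.0703) or a D7 library (replicate 1 for Cyp26a1, 0.0699, and replicate 2 for Cyp26c1, 0.109). Among 12 genes of retinoid handling 4 rose and 1 fell, and 2 and 2 did so with the set as a term. Rdh11, a retinol dehydrogenase, rose from 33.3, 33.8 and 33.4 CPM to 92.5, 88.1 and 71.2 CPM (log2 change 1.33, adjusted p = 2.38e-05). Crabp2, which carries retinoic acid to the nucleus, fell from 581, 564 and 508 CPM to 269, 278 and 225 CPM (log2 change -1.10, adjusted p = 4.71e-06). Rara rose, but its adjusted p was 0.177 with the set as a term. Without any single library other than D10 replicate 2, 2 of the 12 rose.

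The 15 largest falls under the conditions given for the largest rises, among them a mean of 10 CPM at D7, were those of Car4, Inmt, Sox1, Tal2, Car3, Mt2, Wfikkn1, Scn4a, Cplx3, Sox21, Edn1, Dppa5a, Lrtm1, Wnt4 and Maob. They include neural plate and midbrain factors, carbonic anhydrases, a metallothionein, a Wnt ligand and the pluripotency gene Dppa5a. Sox1, the earliest marker of the neural plate, was at 19.2, 15 and 15.9 CPM at D7 and at 0.243, 0.145 and 0.307 CPM at D10. Tal2, a helix-loop-helix factor of midbrain neurons, was at 44.0, 55.1 and 65.1 CPM and 0.973, 1.11 and 1.49 CPM. Both were far above their D10 range at D7 (log2 changes -6.15 and -5.52, adjusted p = 1.16e-07 and 4.09e-09). Car4, a membrane carbonic anhydrase, was at 38.0, 48.0 and 55.1 CPM and then at 0.486, 0.0485 and 0.410 CPM, with D10 replicate 2 lowest (log2 change -7.20, SE 0.75, adjusted p = 8.31e-08). Inmt, a methyltransferase of indole amines, was at 74.4, 68.4 and 70.4 CPM at D7 and at or below 1.26 CPM at D10. Cplx3, a complexin known from ribbon synapses, was at 60.2, 57.0 and 61.5 CPM at D7 and at 1.75, 3.20 and 2.31 CPM at D10 (log2 change -4.62, adjusted p = 1.85e-10).

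Many genes of the forebrain margin and of the hindbrain fell, while a few forebrain genes rose. Of 21 genes of the optic stalk, ciliary margin and forebrain margin 10 fell and 3 rose (median log2 change -1.53), and with the set as a term 12 fell and 2 rose. Without D7 replicate 1, 6 fell. Emx2, a homeodomain factor of dorsal forebrain and optic stalk, was at 55.7, 47.5 and 36.9 CPM at D7 and at 5.69, 8.20 and 9.28 CPM at D10. Wnt2b, a ligand of the ciliary margin, was at 53.5, 46.0 and 55.4 CPM and 11.4, 21.3 and 20.9 CPM. Neither overlapped (log2 changes -2.60 and -1.53, adjusted p = 0.000921 and 8.56e-05). Wnt8b, a ligand of the dorsal midline, was at 178, 121 and 118 CPM and 15.6, 9.94 and 39.0 CPM (adjusted p = 0.02), and its call was lost without D7 replicate 1 (0.0602), D10 replicate 1 (0.0763) or D10 replicate 2 (0.084). The R-spondin Rspo3, which enhances Wnt signals, fell with a log2 change of -2.45, whereas Rspo1 was spread within D10 (17.2, 7.66 and 47.8 CPM), did not pass (adjusted p = 0.467) but passed with the set as a term (adjusted p = 0.00279). Zic5 and Wfdc1 rose with log2 changes of 1.07 and 1.51.

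Of 12 tested genes of midbrain, hindbrain and spinal cord 9 fell and 1 rose (median log2 change -2.49), and the summed level went from 46.4 to 89.6 CPM at D7 to 13.2 to 23.4 CPM at D10. Pax3, a dorsal factor of the neural tube, was at 37.8, 23.2 and 19.2 CPM at D7 and at 4.86, 2.23 and 4.00 CPM at D10, without overlap (log2 change -2.85, adjusted p = 0.000479). Hoxa2, En2 and Gbx2, which mark hindbrain segments and the boundary with the midbrain, had 124, 196 and 75 counts over the 3 D7 libraries and 5, 10 and 5 at D10. Their ratios of D7 to D10 were 27.1, 21.5 and 16.4, with exact 95% counting intervals of 11.3 to 85.1, 11.4 to 45.4 and 6.73 to 52. Olig2 rose from 0.259, 0.377 and 0.342 CPM to 7.296, 5.96 and 6.82 CPM (adjusted p = 9.25e-08). Of 8 tested telencephalon and hypothalamus genes (of 12 listed) 5 rose and 1 fell. Dlx1, a homeodomain factor that the forebrain shares with retinal ganglion and amacrine cells, was at 0.569, 0.323 and 0.0570 CPM at D7 and at 27.5, 29.1 and 20.8 CPM at D10 (log2 change 6.29, SE 0.39, adjusted p = 1.29e-11). Dlx2 and Tbr1, which the retina also expresses in early neurons, rose with log2 changes of 4.80 and 3.63.

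Genes of the stem cell state fell as well. Of 17 pluripotency genes 14 fell and 0 rose (median log2 change -3.10), with 13 and 0 under the set term, and the summed level went from 120.5 to 134 CPM to 37.7 to 46.6 CPM. Nanog, a core factor, was at 4.61, 8.67 and 10.25 CPM at D7 and at 0.730, 1.46 and 0.820 CPM at D10. Dppa5a was at 17.3, 25.7 and 22.8 CPM and 1.36, 1.70 and 1.69 CPM. In both the days were apart (log2 changes -2.96 and -3.79, adjusted p = 6.40e-07 and 4.44e-12). Dppa4 had 113 counts in all at D7 and 2 at D10, a ratio of 61.8 with a counting interval from 16.7 to 517. Pou5f1, which has near-identical pseudogenes, was at 13.5, 17.02 and 16.2 CPM and 4.57, 9.07 and 5.38 CPM and did not pass (adjusted p = 0.0717, 0.00256 with these 6 libraries alone).

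The Lin28 axis, in which the RNA-binding proteins Lin28a and Lin28b block maturation of let-7 microRNAs and so hold progenitors in an early state, had 5 of 14 genes lower and 2 higher (median log2 change -0.32). Lin28a was at 289, 360.1 and 376 CPM at D7 and at 29.2, 39.3 and 31.9 CPM at D10. Lin28b was at 167, 187 and 202 CPM and 53.7, 57.3 and 46.3 CPM. Both fell without overlap (log2 changes -3.35 and -1.82, SE 0.28 and 0.17, adjusted p = 2.58e-09 and 1.74e-08). Nr6a1, a nuclear receptor of early embryonic stages, fell from 149, 171 and 166 CPM to 19.5, 15.9 and 14.8 CPM, and Hmga1 and Igf2bp3 fell with log2 changes of -0.81 and -0.67. Hmga2 and Igf2bp1 did not pass (adjusted p = 0.336 and 0.127). Lin7a, which the list also holds, is a scaffold protein of cell junctions and not a known part of this axis. It rose with a log2 change of 3.12.

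Of 29 genes of the Wnt pathway 10 fell and 2 rose (median log2 change -0.49), and 13 and 2 with the set as a term. Axin2, a feedback inhibitor that canonical Wnt signals switch on, was at 222, 123 and 92.8 CPM at D7 and at 39.2, 26.6 and 46.5 CPM at D10. All D10 libraries lay below the D7 range (log2 change -1.96, SE 0.36, adjusted p = 0.000143). The target Sp5 and the ligands Wnt4 and Wnt3 fell with log2 changes of -3.33, -3.61 and -2.30, and Wls, which Wnt ligands need for secretion, fell with a log2 change of -1.88 (284, 239 and 200.4 CPM at D7, 60.1, 60.5 and 75.8 CPM at D10). Lgr4, a receptor for R-spondins, rose from 62.2, 70.7 and 79.1 CPM to 157, 158 and 154 CPM (log2 change 1.15, adjusted p = 3.42e-05). Rnf43, a ubiquitin ligase that removes frizzled receptors, rose with a log2 change of 2.21. The target Nkd1 overlapped between the days and did not pass (adjusted p = 0.484).

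In the fibroblast growth factor (FGF) pathway 7 of 20 genes rose and 3 fell (median log2 change 0.15, or 0.09 without D10 replicate 2). Among ligands, Fgf9 was at 1.09, 1.51 and 1.94 CPM at D7 and at 29.7, 23.4 and 26.2 CPM at D10, without overlap (log2 change 4.13, SE 0.22, adjusted p = 8.62e-13). Fgf3 and Fgf8 rose from under 1 CPM to 5.11, 4.37 and 3.74 CPM and 3.84, 2.86 and 3.59 CPM. Among receptors, Fgfr2 was at 222, 193 and 204 CPM and 74.2, 69.7 and 79.1 CPM (log2 change -1.47, SE 0.30, adjusted p = 0.000383). The transcription factors Etv1 and Etv4, which the pathway induces, rose with log2 changes of 1.60 and 1.01 and the inhibitor Spry1 fell with a log2 change of -0.84, while Spry2, Spry4, Dusp6 and Etv5 did not pass. The Etv4 call was lost without D7 replicate 3 (adjusted p = 0.133), D10 replicate 1 (0.0512) or D10 replicate 2 (0.0884).

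Of 26 genes of bone morphogenetic protein (BMP), TGF-beta and Nodal signals 6 rose and 4 fell (median log2 change 0.28). Over all tested genes 20.0% rose and 17.8% fell. Tgfb2, a ligand of neural retina, was at 19.6, 31.1 and 28.9 CPM at D7 and at 136, 126 and 122 CPM at D10, and Gdf6, a dorsal BMP, at 5.17, 7.65 and 7.18 CPM and 17.6, 20.0 and 20.8 CPM. Both rose (log2 changes 2.27 and 1.55, adjusted p = 1.51e-08 and 0.00179). Bmp7, a ligand of the vesicle and lens, fell from 122, 111 and 106 CPM to 41.7, 33.9 and 44.1 CPM (log2 change -1.50, adjusted p = 0.00256). Bmp4, the dorsal ligand of the optic cup, did not pass (32.5, 41.1 and 44.8 CPM, 29.4, 28.1 and 33.5 CPM). In the Hedgehog pathway 3 of 12 tested genes fell and 2 rose. Gli3, which mostly acts as the repressor of the pathway, was at 438, 343 and 365 CPM and 118, 115 and 121 CPM, without overlap (log2 change -1.70, SE 0.29, adjusted p = 4.92e-05). Ptch1, the receptor that is also a target, rose with a log2 change of 1.10, and Gli1, the most direct target, did not pass at 0.87 to 2.1 CPM.

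Many replication genes fell, while most mitosis genes did not pass. Of 40 DNA replication genes 27 fell and 0 rose (median log2 change -0.58), and of 32 mitosis genes 1 fell and 3 rose (median 0.06). With the set as a term the replication counts were 25 and 0, with library size alone 19 and 0, and without D10 replicate 3, 17 and 0. The mitosis counts were 3 lower and 1 higher with the set as a term (median -0.04), and 3 lower and 8 higher with the spread of the 6 libraries alone. Mcm5, a subunit of the replicative helicase, was at 402, 383 and 334 CPM at D7 and at 153, 167 and 139 CPM at D10. Mcm7 was at 473, 482 and 453 CPM and 228, 275 and 189 CPM. Every D10 library was below every D7 library (log2 changes -1.28 and -1.03, SE 0.23 and 0.13, adjusted p = 0.000116 and 8.89e-07). Mcm4, Fen1, Cdc6 and Gins1, which load or move the fork or process its lagging strand, fell with log2 changes of -1.11, -1.09, -0.99 and -0.97. Pcna, the sliding clamp, fell with a log2 change of -0.67 and lost its call without D10 replicate 3 (adjusted p = 0.0566). Mki67, a coat of mitotic chromosomes used as a mark of cycling cells, was at 482, 467 and 467 CPM at D7 and at 586, 669.7 and 512 CPM at D10. It did not pass (adjusted p = 0.158), and neither did Top2a, Ccnb1 or Cdk1 (adjusted p = 0.0995, 0.667 and 0.694). With the 6 libraries alone Mki67 and Top2a passed as higher at D10 (adjusted p = 0.0274 and 0.00973). Prc1, a protein of the spindle midzone, rose with a log2 change of 0.59, and Cdc20, an activator of anaphase, fell with a log2 change of -0.47.

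Of 26 genes of G1 control 7 rose and 5 fell, not far from the 20.0% and 17.8% of all tested genes. Among inhibitors of cyclin-dependent kinases, Cdkn2c was at 1.09, 0.808 and 0.626 CPM at D7 and at 7.00, 6.45 and 7.74 CPM at D10, and Cdkn1c, which progenitors switch on as they leave the cycle, at 73.6, 59.3 and 52.8 CPM and 185, 138 and 160.1 CPM. The days did not overlap in either (log2 changes 3.06 and 1.38, adjusted p = 3.44e-06 and 6.65e-05). Cdkn2d and Cdkn1b rose with log2 changes of 0.99 and 0.81. Among the genes that fell, Myc, a driver of growth and ribosome synthesis, was at 47.5, 60.7 and 51.3 CPM and 12.16, 17.2 and 12.5 CPM (log2 change -1.93, SE 0.44, adjusted p = 0.00109), and Ccne1 and Cdk4 fell with log2 changes of -0.86 and -0.66. Mycn and Mycl, its relatives, rose with log2 changes of 0.80 and 0.80.

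Targets of p53, the factor that answers DNA damage and other stress, mostly fell: 14 of 18 fell and 1 rose (median log2 change -0.93), with 13 and 1 under the set term. Pmaip1, a killer of mitochondrial integrity, was at 24.6, 29.4 and 25.9 CPM at D7 and at 4.47, 6.55 and 3.79 CPM at D10. Ccng1, one of the most regular p53 targets, was at 277, 312 and 277 CPM and 131, 141 and 109.9 CPM. No library of one day reached the other (log2 changes -2.43 and -1.18, SE 0.34 and 0.24, adjusted p = 5.90e-06 and 0.000409). Phlda3, Eda2r, Aen, Bax and Mdm2 fell with log2 changes of -1.63, -1.61, -1.40, -0.80 and -0.77. Cdkn1a, the cell cycle inhibitor of the pathway, fell with a log2 change of -0.99 (adjusted p = 0.0228) but lost its call without D7 replicate 1 (0.0677) or 2 (0.0553) or D10 replicate 1 (0.0533) or 2 (0.0757). Sesn1 rose with a log2 change of 1.02.

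Listed targets of hypoxia-inducible factor (HIF) rose almost throughout. Per the labels oxygen was at 5% on both days, unless D10 tissue was taken after the change. The list is not complete: Edn1, among the largest falls above (log2 change -3.85, adjusted p = 0.00323), is not in it. HIF is degraded when prolyl hydroxylases such as Egln1 have oxygen, and otherwise binds short DNA elements at its targets. Of 26 hypoxia targets outside glycolysis 23 rose and 0 fell (median log2 change 1.73), with 22 and 0 under the set term and 21 and 0 with only set 1. Bnip3, a receptor that marks mitochondria for removal, was at 22.6, 31.3 and 42.9 CPM at D7 and at 417, 319 and 397 CPM at D10. Vegfa, the growth factor of vessels, was at 53.04, 54.0 and 74.5 CPM and 392, 384 and 393 CPM. The lowest D10 library stood well above the highest D7 library for both (log2 changes 3.55 and 2.69, SE 0.44 and 0.25, adjusted p = 9.22e-07 and 1.49e-08). Adm, a vessel-relaxing peptide, and Ankrd37 rose from low levels to 10.8, 6.45 and 7.07 CPM and 26.4, 20.6 and 18.8 CPM. Ddit4, a brake on mTOR, was at 44.5, 47.0 and 42.4 CPM and 401, 295 and 314 CPM (log2 change 2.92, adjusted p = 0.000312). The hydroxylases Egln3 and Egln1, which HIF itself induces, rose with log2 changes of 2.33 and 1.81. Mif, Bnip3l and Higd1a did not pass (adjusted p = 0.707, 0.108 and 0.0629).

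Of 9 oxygen-sensing and HIF factors 2 rose and 2 fell, beside 20.0% and 17.8% of all tested genes. Hif1a, the main alpha subunit, was at 186, 203 and 207 CPM at D7 and at 151, 188 and 146 CPM at D10 and did not pass (adjusted p = 0.316). Hif3a, an alpha subunit whose short forms restrain the others, rose from 4.55, 5.23 and 7.35 CPM to 37.7, 43.7 and 41.5 CPM (log2 change 2.84, SE 0.35, adjusted p = 8.88e-07). Cited2, which competes with HIF for its coactivator, fell from 74.6, 74.1 and 77.7 CPM to 32.0, 30.3 and 39.1 CPM (log2 change -1.16, adjusted p = 0.00049).

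Of 26 glycolysis and lactate genes 18 rose and 1 fell (median log2 change 0.89), and 16 and 2 with the set as a term. Slc2a1, the glucose transporter of neural tissue, was at 414, 417 and 365 CPM at D7 and at 1757, 1291 and 1733 CPM at D10, D10 replicate 2 being the lowest of its day. Slc16a3, which exports lactate, was at 25.7, 35.4 and 37.5 CPM and 301, 229.7 and 309 CPM. Neither overlapped (log2 changes 2.00 and 3.09, SE 0.25 and 0.41, adjusted p = 1.33e-06 and 2.73e-06). Hk2 and Pfkp, enzymes of the first committed steps, rose with log2 changes of 2.02 and 2.60, Aldoc with one of 1.88, and Pdk1, which keeps pyruvate out of mitochondria, with one of 1.19. Ldha, which makes lactate, rose with a log2 change of 0.71 (adjusted p = 0.0119) and lost its call without D7 replicate 1 (0.0657). Ldhb, the subunit that favours pyruvate, fell from 291, 327 and 325 CPM to 218, 197 and 204 CPM (log2 change -0.61, adjusted p = 0.00943). Gapdh and Pkm were the members with the highest level among those that did not pass. At D10 Gapdh was at 4187, 4042 and 3869 CPM and Pkm at 3970, 3328 and 3665 CPM. With the spread of the 6 libraries alone Gapdh passed as lower at D10 (log2 change -0.32, adjusted p = 0.00892). In that fit 20 genes of the list rose and 2 fell. Gapdh, Eno1, Pgk1 and Ldha have pseudogenes or near copies among which reads may be divided.

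Promoters of 2 HIF targets are shown because the 2 lists moved together. Capitals mark the core of the hypoxia response element, searched as ACGTG and GCGTG on both strands; where CACGTG reads alike on both strands, the 2 matches overlap and both are counted. Both windows run from 250 bases before to 50 after the start and are written along the minus strand (RefSeq, GRCm38.p6): Bnip3 at chr7:138909457-138909756, with 5 matches, and Egln3 at chr12:54203825-54204124, with 1.
Bnip3: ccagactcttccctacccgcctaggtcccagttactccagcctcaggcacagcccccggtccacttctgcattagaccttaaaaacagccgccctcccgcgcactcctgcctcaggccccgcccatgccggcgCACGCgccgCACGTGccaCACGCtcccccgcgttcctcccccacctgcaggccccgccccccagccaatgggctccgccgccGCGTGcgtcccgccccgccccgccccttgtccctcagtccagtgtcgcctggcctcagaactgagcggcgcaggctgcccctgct
Egln3: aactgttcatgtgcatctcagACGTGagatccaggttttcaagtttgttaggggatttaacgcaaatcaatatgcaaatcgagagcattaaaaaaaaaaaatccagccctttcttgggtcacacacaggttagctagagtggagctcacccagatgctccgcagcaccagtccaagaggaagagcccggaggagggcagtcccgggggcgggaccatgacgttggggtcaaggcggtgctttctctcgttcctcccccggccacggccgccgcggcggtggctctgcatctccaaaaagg
Of 41 hypoxia and glycolysis genes that rose, 37 have a promoter in the table, and 32 of these have the core in at least 1 window. The core was in 40 of their 53 windows (75.5%) and in 43.8% of all 32851 windows. The core is short and GC-rich promoters hold it often, and matches were not compared at equal base composition. The genes came from lists chosen by pathway, and listed genes that did not rise were not counted apart. The shares therefore say nothing about the change between the days.

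**Figure D3:**
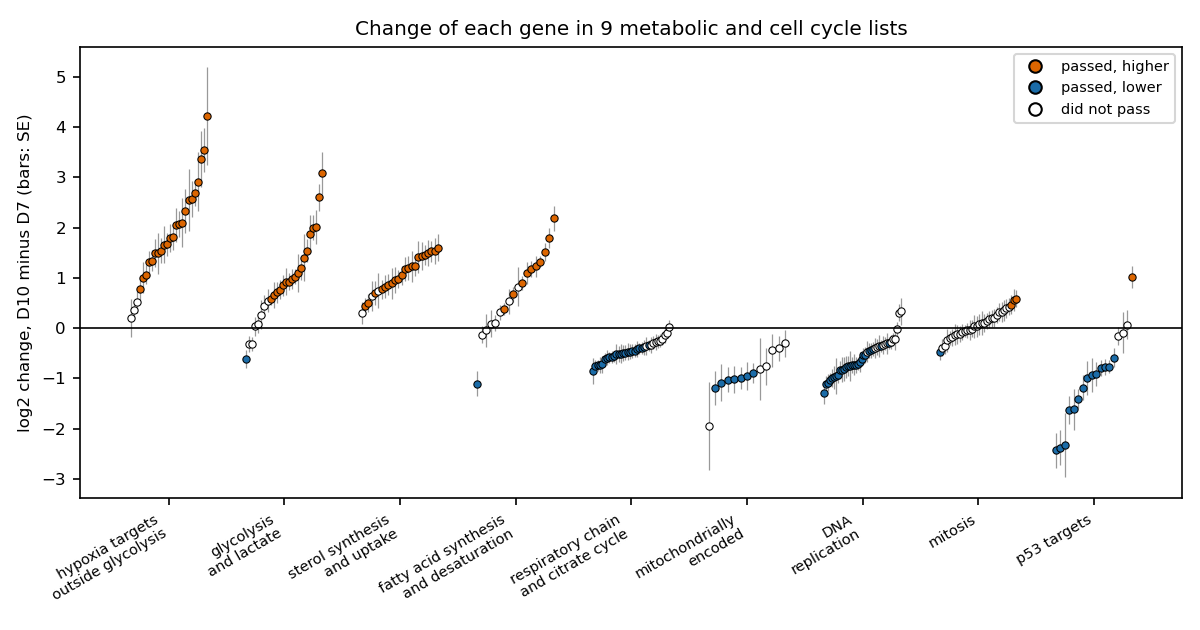
Log2 change from D7 to D10 of each gene of 9 lists, ordered within its list (bars, SE); orange, passed and higher, blue, passed and lower, white, did not pass. Most hypoxia (23 of 26) and sterol genes (21 of 24) passed as higher. Most replication (27 of 40), respiratory (24 of 34) and p53 target genes (14 of 18) passed as lower, and mitosis genes lie around 0.

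Many mitochondrial genes fell by modest amounts. Of 34 genes of the respiratory chain and citrate cycle 24 fell and 0 rose (median log2 change -0.46). The counts were 18 and 0 with the set as a term, 15 and 0 with library size alone, and 14 and 0 without D10 replicate 3. Atp5b, the catalytic subunit of ATP synthase, was at 1153, 1125 and 1068 CPM at D7 and at 747, 788 and 697 CPM at D10. Cox5a, a subunit of complex IV, was at 96.4, 102 and 103 CPM and 61.0, 65.1 and 53.5 CPM. Although the changes are under 2-fold, the days did not overlap (log2 changes -0.58 and -0.75, SE 0.14 and 0.11, adjusted p = 0.00244 and 6.09e-06). Cycs, Suclg1, Cyc1 and Idh3a fell with log2 changes of -0.85, -0.74, -0.74 and -0.72. Sdha and Sdhc did not pass. Of 13 mitochondrially encoded genes 7 fell and 0 rose (median log2 change -0.95), and their share of all counts was 1.68 to 2.93% at D7 and 1.40 to 1.90% at D10, overlapping between the days. mt-Cytb, of complex III, was at 1986, 2503 and 2583 CPM and 1218, 1373 and 969.5 CPM (log2 change -0.99, SE 0.21, adjusted p = 0.000649). Their 3 cytochrome oxidase genes did not pass. With only set 1, 3 of the 13 fell.

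Genes of lipid synthesis rose. Of 24 genes of sterol synthesis and uptake 21 rose and 0 fell (median log2 change 1.02), with 19 and 0 under the set term and with only set 1. Hmgcs1, which makes the precursor of mevalonate, was at 363, 336 and 282 CPM at D7 and at 948, 933 and 727 CPM at D10. The days did not overlap (log2 change 1.41, SE 0.32, adjusted p = 0.00105). Insig1, Stard4, Lss and Tm7sf2 rose with log2 changes of 1.60, 1.53, 1.52 and 1.49, and Srebf2, the transcription factor that drives most of these genes, with one of 1.23. Idi1 and Hsd17b7 did not pass. Of 18 genes of fatty acid synthesis and desaturation 10 rose and 1 fell (median log2 change 0.75). Scd1 and Scd2, desaturases that make monounsaturated fatty acids, were at 63.5, 74.9 and 68.0 and 880.1, 903 and 859 CPM at D7 and at 358, 312 and 272 and 3123, 3193 and 2842 CPM at D10. Both rose without overlap (log2 changes 2.19 and 1.79, adjusted p = 2.79e-07 and 1.15e-07). Fads1, Fads2 and Elovl6 rose with log2 changes of 1.32, 1.51 and 1.23. Elovl2, which elongates very long polyunsaturated chains, fell from 31.1, 32.16 and 36.3 CPM to 16.5, 15.23 and 14.6 CPM, and Fasn, the synthase itself, did not pass (694, 628 and 522 CPM, 732, 596 and 638 CPM, adjusted p = 0.823).

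Of 17 genes of oxidative stress and metal binding 8 fell and 1 rose (median log2 change -0.36). Mt2, a metallothionein that binds zinc, was at 54.7, 65.8 and 47.7 CPM at D7 and at 1.26, 1.26 and 1.95 CPM at D10. Mt1, its neighbour, was at 70.5, 75.8 and 58.6 CPM and 10.6, 7.57 and 10.15 CPM. The fall left no overlap in either (log2 changes -5.23 and -2.86, SE 0.68 and 0.42, adjusted p = 1.82e-06 and 9.68e-06). Mt3, another metallothionein, and the zinc exporter Slc30a1 fell with log2 changes of -2.66 and -1.45. Because these 4 genes fell together, the promoters of Mt1 and Mt2 are shown, with the core of the metal response element in capitals (TGCACNC or TGCGCNC, both strands; 3 matches in Mt1 and 4 in Mt2). They are windows of the same kind on the plus strand of GRCm38.p6 (RefSeq), Mt1 at chr8:94178839-94179138 and Mt2 at chr8:94172368-94172667.
Mt1: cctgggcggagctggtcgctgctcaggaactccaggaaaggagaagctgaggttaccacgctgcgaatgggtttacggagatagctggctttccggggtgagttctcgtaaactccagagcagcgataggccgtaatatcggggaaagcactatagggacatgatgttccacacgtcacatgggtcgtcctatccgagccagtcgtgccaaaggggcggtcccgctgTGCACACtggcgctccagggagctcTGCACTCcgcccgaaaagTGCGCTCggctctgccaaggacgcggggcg
Mt2: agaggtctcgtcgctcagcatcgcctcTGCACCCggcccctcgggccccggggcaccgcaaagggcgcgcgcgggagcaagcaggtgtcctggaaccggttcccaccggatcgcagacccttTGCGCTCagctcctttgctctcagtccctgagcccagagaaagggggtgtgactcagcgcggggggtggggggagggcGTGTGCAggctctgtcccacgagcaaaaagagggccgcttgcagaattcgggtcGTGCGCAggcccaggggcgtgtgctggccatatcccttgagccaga
All 4 genes had the core in their window, against 25.7% of the 32851 windows. They were picked by name as metal genes that fell, so this share says nothing about the cause of the fall. Txnip, an inhibitor of glucose uptake that glucose induces, rose from 18.6, 44.0 and 84.6 CPM to 109.6, 117 and 152 CPM, with a wide spread at D7 (log2 change 1.36, adjusted p = 0.00306).

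Of 24 genes of the amino acid response led by Atf4, 8 fell and 3 rose (median log2 change -0.23). Atf4 was at 270.3, 254 and 226 CPM at D7 and at 156, 138 and 137 CPM at D10, and Phgdh, the first enzyme of serine synthesis, at 269, 255 and 204 CPM and 124, 127 and 117 CPM. Both fell (log2 changes -0.80 and -0.98, adjusted p = 0.00369 and 0.000235), as did Atf5 (-1.17), Sesn2 (-0.90) and Asns (-0.66). Vldlr, a lipoprotein and reelin receptor, rose from 30.6, 17.3 and 18.05 CPM to 121, 96.8 and 117 CPM. Of 15 chaperones and stress genes of the endoplasmic reticulum 6 fell and 2 rose. Hspa5, the main chaperone there, fell from 651, 667 and 606 CPM to 422, 408 and 395 CPM (log2 change -0.65, adjusted p = 9.45e-05). In polyamine synthesis 5 of 10 genes fell and 1 rose. Srm, spermidine synthase, was at 110, 124 and 116 CPM and 39.6, 36.2 and 35.8 CPM (log2 change -1.65, adjusted p = 2.08e-06), and Odc1, the rate-limiting enzyme, fell with a log2 change of -0.94. Without D7 replicate 2 or D10 replicate 3, 3 of the 10 fell.

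Immediate early genes can be switched on within minutes by dissection or handling, and also by other signals, which the design does not separate. Of 17, 3 fell and 1 rose, with 3 and 3 under the set term, 7 and 1 with only set 1, and 7 and 4 with the 6 libraries alone. Fos was at 9.16, 14.3 and 6.04 CPM at D7 and at 2.97, 1.41 and 3.23 CPM at D10, and Egr1 at 13.4, 21.6 and 8.66 CPM and 2.48, 1.21 and 7.18 CPM. The days did not overlap and neither gene passed (adjusted p = 0.148 and 0.158, and 0.00291 and 0.0167 with these 6 libraries alone). Atf3 and Ctgf fell with log2 changes of -2.08 and -1.99, and Ier3 rose with a log2 change of 3.17. The part of handling in other results was not tested.

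In the insulin and IGF pathway 7 of 17 genes rose and 2 fell, and 4 and 2 with the set as a term. Igf1 was at 1.86, 1.08 and 1.94 CPM at D7 and at 10.6, 7.37 and 8.41 CPM at D10, and the receptor Insr at 55.2, 43.5 and 54.7 CPM and 82.9, 100.5 and 95.0 CPM. Both rose (log2 changes 2.43 and 0.86, adjusted p = 3.74e-05 and 9.65e-05). Irs4, an adaptor of the receptors, fell from 43.9, 37.4 and 43.4 CPM to 5.98, 5.72 and 4.15 CPM, and Igfbp3, a binding protein, fell with a log2 change of -3.59. Igfbp2 and Igfbp5 passed (log2 changes 0.65 and 0.99) but not with the set as a term (adjusted p = 0.183 and 0.207). With only set 1, or without D7 replicate 3, 3 of the 17 rose, and without D7 replicate 2, D10 replicate 1 or D10 replicate 3, 4. Without D7 replicate 2, D10 replicate 1 or D10 replicate 3, 4 rose, and without D10 replicate 2, 4 fell.

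Of 28 genes of basement membrane and matrix 9 rose and 2 fell, with 6 and 4 under the set term. Col9a2, a chain of the collagen IX of the vitreous side, was at 4.24, 5.50 and 4.04 CPM at D7 and at 88.4, 84.6 and 113 CPM at D10, and Spon1, a guidance protein, at 36.5, 26.4 and 24.3 CPM and 104, 102 and 106 CPM. Neither overlapped (log2 changes 4.37 and 1.84, adjusted p = 7.21e-11 and 9.25e-08). Lamb1 and Lamc1, laminin chains, fell with log2 changes of -0.75 and -0.51, calls that were lost without D10 replicate 2 (adjusted p = 0.117 and 0.0701). Lamb1 also lost its call without D7 replicate 2 (0.0995) or 3 (0.0711) or D10 replicate 1 (0.118), and Lamc1 without D7 replicate 1 (0.0801). Of 22 cadherin, polarity and junction genes 7 rose and 5 fell, beside 20.0% and 17.8% of all tested genes. Crb1, a polarity protein of the apical edge, was at 1.60, 1.46 and 1.54 CPM and 56.0, 52.2 and 45.1 CPM (log2 change 5.05, SE 0.28, adjusted p = 1.65e-12). Cdh1, the epithelial cadherin, fell from 11.9, 15.5 and 10.31 CPM to 1.65, 1.55 and 1.79 CPM (log2 change -2.91, adjusted p = 4.06e-05), and Cdh2, the neural one, did not pass (adjusted p = 0.824). Without D7 replicate 2, 3 of the 22 rose, and without D10 replicate 1, 4. Of 11 genes of DNA methylation 5 rose and 0 fell. Dnmt3a, a de novo methyltransferase, went from 137, 140.3 and 148 CPM to 281, 271 and 266 CPM (log2 change 0.94, adjusted p = 0.000226). Without D7 replicate 2, 2 of the 11 rose, and without D7 replicate 3, 3.

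Markers of other cell types that a dissected piece could hold are given here by count and summed level. The counts stand beside 20.0% of all tested genes that rose and 17.8% that fell. Of 14 tested fibroblast and mesenchyme genes 4 rose and 0 fell, 2 and 0 with the set as a term, and the summed level was 178 to 209 CPM at D7 and 160 to 243 CPM at D10. Without D7 replicate 2 or D10 replicate 1, 2 of them rose, and without D7 replicate 3, 1. Pdgfrb, a receptor of mural cells, rose from 2.48, 2.10 and 1.71 CPM to 17.02, 14.1 and 13.7 CPM (log2 change 2.83, adjusted p = 6.31e-06). Of 9 neural crest and Schwann cell genes 2 rose and 3 fell, with 65.9 to 76.7 CPM in sum at D7 and 62.7 to 69.8 CPM at D10. Of 7 tested endothelial genes 1 rose and 1 fell. The one that rose, Kdr, the receptor for Vegfa, which retinal progenitors also express, made up most of the sum of 77.0 to 88.6 CPM at D10 (27.3 to 31.9 CPM at D7), while Cdh5 was at or below 0.359 CPM and Pecam1 at or below 1.72 CPM in each library. Of 5 tested microglia and blood genes 1 rose, with 1.94 to 2.79 CPM in sum at D7 and 3.84 to 6.35 CPM at D10. Of 5 tested lens genes 1 fell, with 16.4 to 17.7 CPM at D7 and 10.6 to 12.5 CPM at D10. Of 6 surface epithelium genes 2 fell and 1 rose, and of 4 mesendoderm genes none passed, with at most 2.11 CPM in sum. Of 12 genes of Müller glia, the last-born retinal cells, 3 rose and 1 fell. The part of these cells in the other results was not tested.

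**Figure D4:**
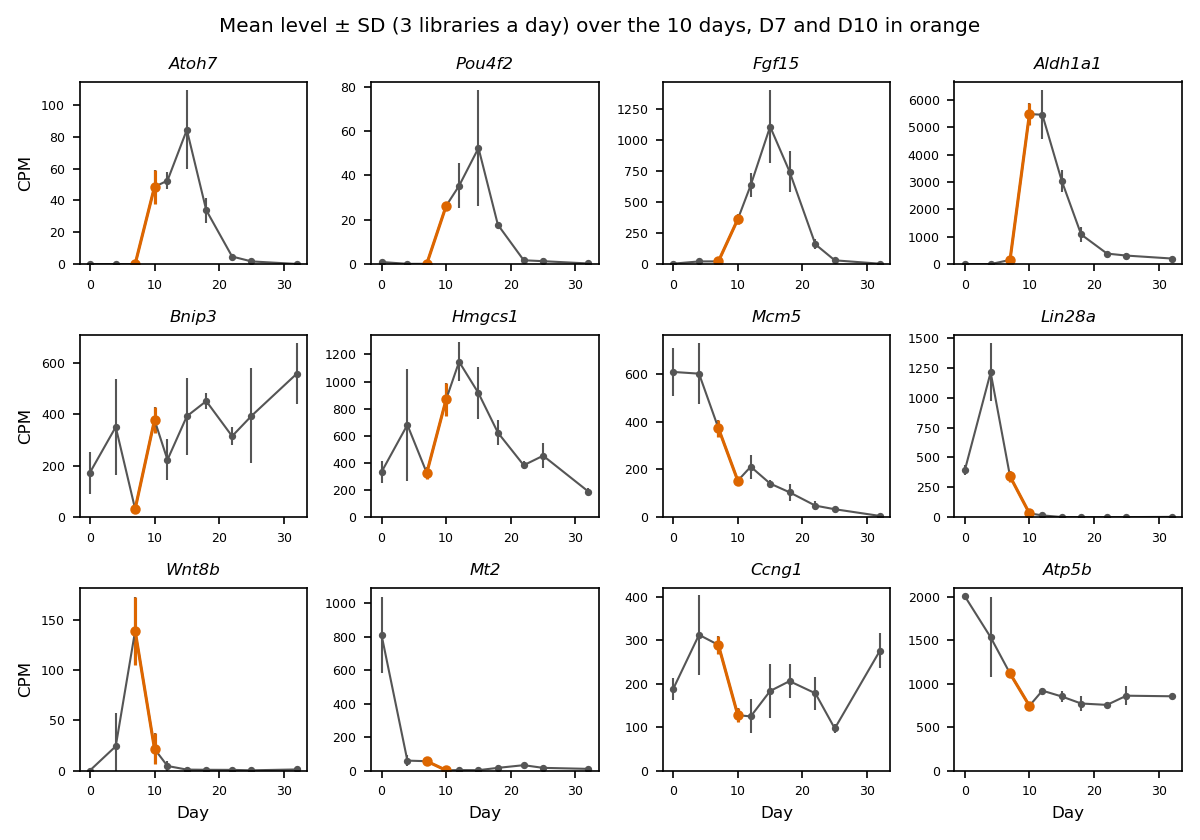
Mean CPM ± SD of 3 libraries at each of the 10 days for 12 genes, with D7 and D10 in orange. Atoh7 and Pou4f2 are above 10 CPM from D10 to D18 and highest at D15, Aldh1a1 is highest at D10 and D12, Lin28a and Wnt8b are lower on every later day than at D7, and Bnip3 has its lowest mean at D7 and Mt2 at D10.

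Across the whole series, with the days' means as a description, Atoh7 had 0.0563 ± 0.0566 CPM at D4, 0.0180 ± 0.0311 at D7, 48.6 ± 10.8 at D10, 84.3 ± 24.9 at D15 and 0.113 ± 0.0997 at D32, so that D10 was the first of the 10 days with a mean above 1 CPM. Aldh1a1 was at 5481 ± 390.2 CPM at D10 and at 5456 ± 896 CPM at D12, which differ by less than their spread, and at 3040 ± 406 CPM at D15. Mcm5 had 600.5 ± 127 CPM at D4, 373 ± 35.1 at D7 and 153 ± 13.8 at D10, and the D10 and D15 means (141 ± 16.5) again differed by no more than the spread. Bnip3 was at 173 ± 82.1 CPM at D0, 350.4 ± 186 at D4, 32.27 ± 10.17 at D7, 378 ± 51.8 at D10 and 223 ± 79.0 at D12, so that D7 had the lowest mean of the series. Vegfa had the same low at D7, with 60.7 ± 29.7 CPM at D4, 60.5 ± 12.11 at D7 and 389.9 ± 5.06 at D10, though its D4 and D7 values overlap in spread. Mt2 had 812 ± 229 CPM at D0, 56.1 ± 9.13 at D7 and 1.49 ± 0.395 at D10, its lowest day.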

How the data were processed

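Polyadenylated RNA of dissected organoid neural retina was sequenced after a stranded library preparation from 100 ng of RNA, per the labels' protocols. The values are estimated counts per gene that the authors deposited as 1 table, and they were rounded to whole numbers here. The submitters' processing notes name Trimmomatic 0.36, kallisto 0.42.4, edgeR and GRCm38.p4. How transcripts were summed to genes and how strand was used is not given in the sources used here. Because kallisto divides reads among similar transcripts by estimation, near-identical genes and pseudogenes can exchange counts. Samples were grouped by day from the labels, and 3 columns of the table that match no sample were not used.

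Genes were kept by filterByExpr with day as group (minimum count 10, minimum total 15), scaled by TMM and tested with the quasi-likelihood F test of edgeR 4.0.16 in R 4.3.3. One mean per day was fitted over all 30 libraries, the contrast was D10 minus D7, and p-values were adjusted by Benjamini and Hochberg over 19897 genes and called below 0.05. The standard error (SE) was the log2 change divided by the square root of F. Libraries were put into 2 sets at an Rpl3 pseudogene share of 50%. The code was tested on simulated counts first, and the number of 2-fold changes it had to recover was lowered after a first run fell short.

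The comparison and the 52 gene lists were chosen with earlier results of these data known. Named genes are the 15 largest rises and 15 largest falls called with and without the set term, without overlap, at a mean of at least 10 CPM on the higher day and outside predicted, pseudogene, histone, ribosomal protein and mitochondrially encoded genes. In each list they are also the members with the largest changes in either direction, the most abundant member that did not pass and defining members of the pathway. Some genes that this rule names are not reported here. Alternatives were RLE factors, no scaling factors, DESeq2 1.42.0, other filters on low counts, only the 6 libraries, a block for the replicate number, the library set as a term, only set 1, and leaving out each library. No pairing of libraries by replicate number was seen (correlations of deviations 0.087, 0.008 and -0.113, and -0.189 to 0.196 for unlike numbers). Deviations from a mean of 3 libraries, with both library sets within D10, cannot exclude one.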

Additional observations from a re-analysis of the deposited data

How the results depend on the processing

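The number of changed genes was 7522, of which 3979 were higher and 3543 lower and 3564 changed at least 2-fold. Without scaling factors 2273 genes were lower. With only set 1, where D10 replicate 2 is alone and assumed to vary like other days, 4266 genes changed, 2108 higher and 2158 lower. Leaving out 1 library gave 5951 to 6728 changed, 3153 to 3622 higher, 2675 to 3267 lower and 3095 to 3540 at least 2-fold. The cause was not tested, beyond the fewer samples that such fits hold. The other settings stayed within 1.5 times these counts. With the replicate number as a block, 7675 genes changed (4029 higher, 3646 lower, 3634 at least 2-fold). Since no pairing by number was seen, this is given only here. Without scaling factors the falls among respiratory genes went from 24 to 15, among endoplasmic reticulum genes from 6 to 3, and among polyamine and G1 genes from 5 to 3 each. With the spread of the 6 libraries alone, the Lin28 axis had 10 falls in place of 5, and the BMP list 12 rises and 7 falls in place of 6 and 4. Of 503 called genes among those named and listed, none changed direction under any setting in which it was compared. That was 494 genes with the 6 libraries alone, 501 with DESeq2 and with a filter on CPM, and 503 otherwise. All settings reuse libraries from which the genes were called, so a reversal was unlikely in advance. Their calls were kept for 499 with RLE factors, 448 without scaling factors, 450 with the set term, 364 with only set 1 and 425 to 458 with 1 library left out. Genes below 1 CPM rest on at most 20.6 counts a library, and small changes there were not detectable at this depth.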

Other observations

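Long non-coding genes were called less often than protein coding genes, mainly through fewer falls. Of 2574 tested, 22.7% were called, 499 higher and 85 lower at D10 (464 and 76 with the library set as a term). Of 16205 protein coding genes 41.6% were called, 3379 higher and 3356 lower. Over all tested genes 20.0% were higher and 17.8% lower. The rises of long non-coding genes were thus near the share of all genes, and their falls were below it. Whether strand was used in counting is not stated, and the share of these calls that comes from overlapping genes was not tested.

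Some genes followed the library set and not the day, chosen after their values were seen. Of 10698 genes with a mean of at least 10 CPM on either day, 9 had D10 replicate 2 inside the D7 range and both other D10 libraries at least 2-fold above it, and 14 had them at least 2-fold below it. Only 1 of these 23 genes, the predicted gene Gm3411, was called. Most are pseudogenes or predicted genes. Hmgb1, an abundant chromatin protein, was at 435, 542 and 537 CPM at D7 and at 187, 505 and 187 CPM at D10 (adjusted p = 0.193). Rec8, a meiotic cohesin subunit, was at 9.83, 15.0 and 14.9 CPM at D7 and at 2.58, 14.5 and 3.69 CPM at D10 (adjusted p = 0.436).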
